A study of Homo sapiens with 6 samples.

Results

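The transcripts examined here are 10 genes that report the activity of the ERK pathway, picked by gene symbol among the 58735 genes of the deposited expression table. All 10 were found, each as a single row: the phosphatase genes DUSP4, DUSP5 and DUSP6, the inhibitor genes SPRY2, SPRY4, SPRED1 and SPRED2, and the transcription factor genes ETV4, ETV5 and FOSL1. The data came from PANC-1, a long-established line of human pancreatic ductal adenocarcinoma cells, transfected with control siRNA (si-NC, 3 samples) or with siRNA against METTL16 (si-METTL16, 3 samples). METTL16 is a methyltransferase that places m6A on a small set of RNAs. All cells shared the same medium with fetal bovine serum, a source of growth factors. The sample labels speak of siRNA, the methods call the transfection stable, and neither gives the time from transfection to harvest. A label of the control samples also reads wild type. Both groups are 1 line, so the comparison holds for PANC-1 only, and since the methods say only that the triplicates were biological, not that the cultures were grown separately, the p-values may measure no more than the spread between these samples.

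In the RAS-RAF-MEK-ERK cascade, activated growth factor receptors load RAS with GTP, and RAF, MEK and ERK kinases then phosphorylate each other in series. Active ERK enters the nucleus and induces a compact group of genes. Some encode transcription factors that carry the signal on, and others encode inhibitors that act back on the pathway: DUSP phosphatases remove the phosphates from MAP kinases, while Sprouty and Spred proteins act at the level of RAS and RAF. The levels of such output genes are widely used as a readout of ERK activity. Each of them also answers to other signals.

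The total count per sample was between 15725298 and 18054436, so by these unadjusted totals 3 counts stood for 0.166 to 0.191 CPM (counts scaled to a common library total). The CPM values of genes use totals adjusted by TMM and differ slightly from that scale. METTL16 itself was at 91.5, 96.7 and 101 CPM in the si-NC samples and at 34.8, 33.9 and 34.9 CPM in the si-METTL16 samples, a fall by 1.48 on the log2 scale. The ductal keratins KRT8, KRT18 and KRT19 and the factor SOX9 were expressed in every sample, and KRT7 stayed below 1.11 FPKM, the unit of counts scaled to gene length and library total. The 5 ductal markers summed to 349 to 452 FPKM in si-NC and to 357 to 398 FPKM in si-METTL16 cells. Of 12 markers of acinar, islet, leukocyte, endothelial and fibroblast cells, 11 were below 0.1 FPKM in all 6 samples. The exception, COL1A1, lay at 25.0 to 28.9 FPKM in si-NC and at 60.8 to 64.4 FPKM in si-METTL16 cells, while the other fibroblast markers COL1A2 and PDGFRB reached at most 0.0440 FPKM. Of the 5 ductal markers, 3 fell, KRT19 by 1.40, KRT7 by 0.84 and SOX9 by 0.25 on the log2 scale, while KRT8 and KRT18, which make up most of the sum, were not called. KRT19 lay at 38.7 to 50.1 FPKM in si-NC and at 12.4 to 19.7 FPKM in si-METTL16 cells, and the part of these shifts in the results was not tested.

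The 10 genes did not move as a block. After METTL16 silencing, 5 of them rose (DUSP4, DUSP5, SPRY2, ETV4 and FOSL1) and 2 fell (DUSP6 and SPRED1) at an adjusted p under 0.05 from edgeR's quasi-likelihood test, which compared counts over 15089 genes. The other 3 did not pass the test (SPRY4, SPRED2 and ETV5). Over all tested genes 35.9% were called, 18.4% as higher and 17.5% as lower. The median absolute log2 fold change of the 10 genes was 0.70, against 0.33 over all tested genes, and their median log2 fold change was 0.43, against 0.00. DUSP4 entered the test only because of its counts in si-METTL16 cells, and without it 6 of 9 genes were called, 4 higher and 2 lower. Their median log2 fold change was 0.14 and their median absolute log2 fold change 0.68. For 8 of the 10 genes, or 7 of 9 without DUSP4, the values of the groups were apart, against 50.9% of all tested genes. The 10 genes were chosen with earlier results of these data known, so these counts and medians are a description. In bulk RNA, a change in every cell and a change in the share of cells that carry a transcript cannot be told apart. For any gene with 3 samples a side, exact permutation reaches no lower than p = 0.1, so the calls rest on the spread that edgeR shares across genes.

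**Figure D1:**
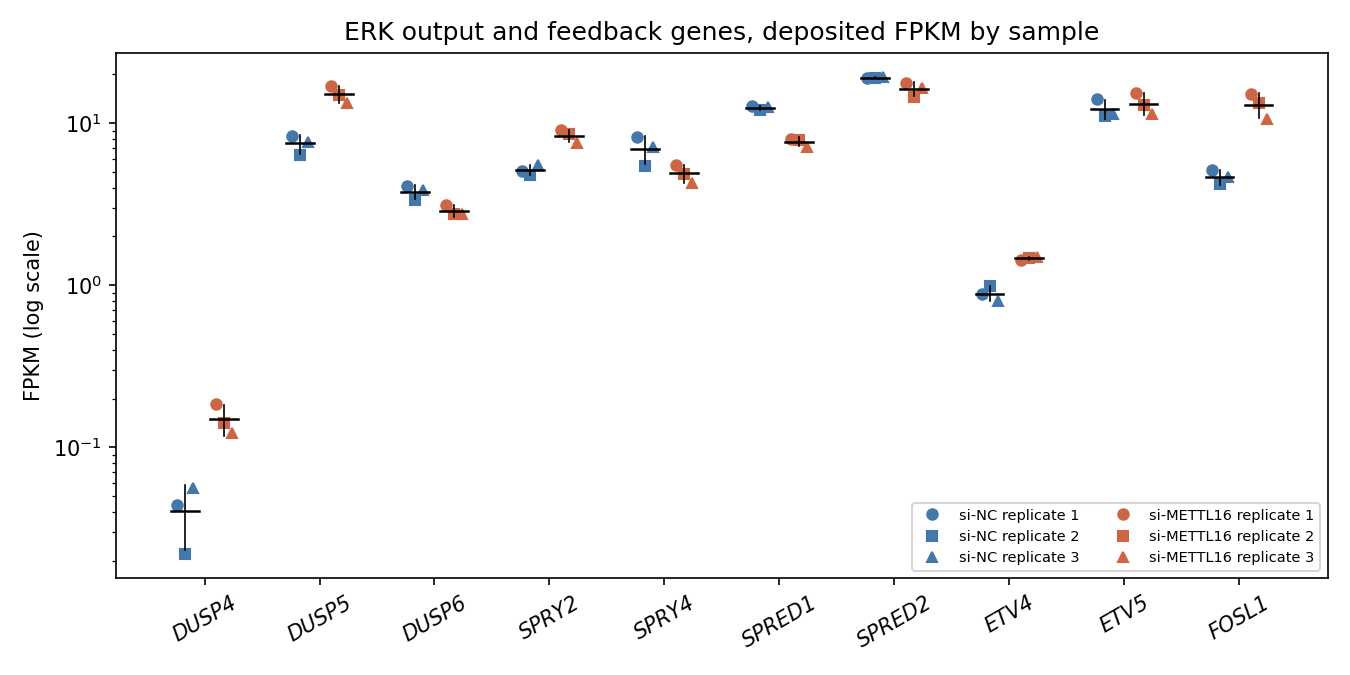
Deposited FPKM (log axis) of the 10 ERK output and feedback genes, with 1 point per sample, a horizontal bar for the mean of each group and a vertical bar for its SD (n = 3). DUSP4, DUSP5, SPRY2, ETV4 and FOSL1 lie higher in all 3 si-METTL16 samples, DUSP6, SPRED1 and SPRED2 lie lower in all 3, and SPRY4 and ETV5 overlap.

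**Figure D2:**
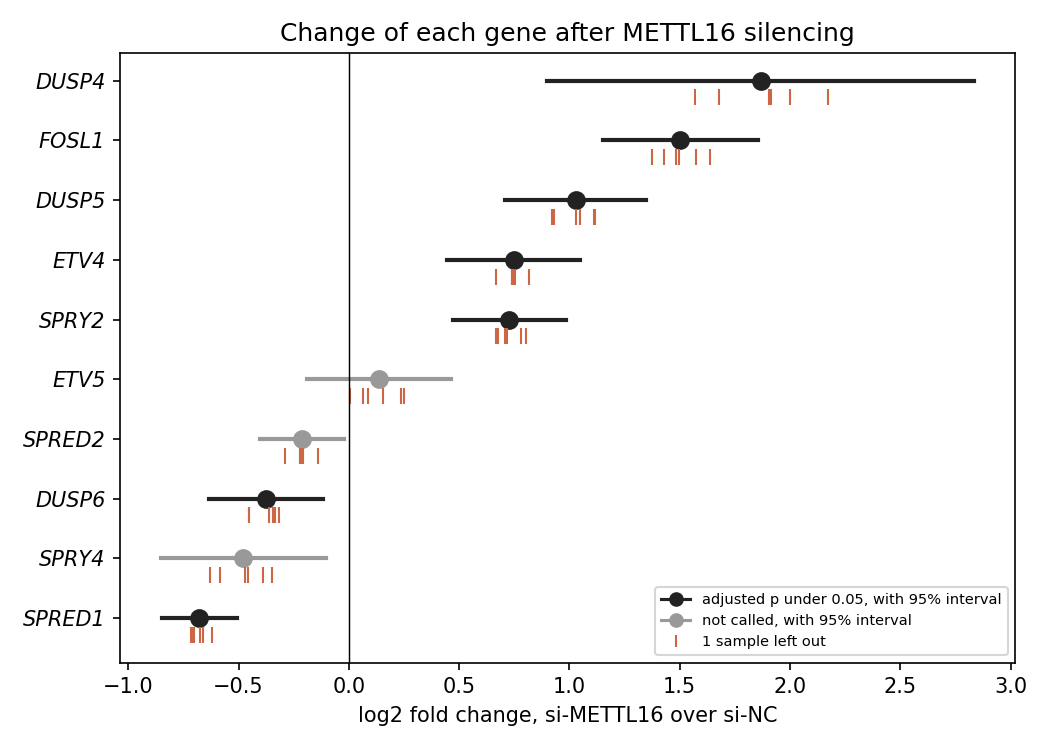
Log2 fold change of each gene, si-METTL16 over si-NC, from edgeR with its 95% interval (dark where the adjusted p was under 0.05, grey where it was not) and, as short orange ticks, the value with each of the 6 samples left out. DUSP4 (1.87) lies farthest to the right, with a wide interval, followed by FOSL1 (1.50) and DUSP5 (1.03). SPRED1 (-0.68) is lowest, and the ticks of every gene stay on the same side of 0 as its estimate.

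Compared per gene length, the levels spanned a wide range in control cells. SPRED2 was the most abundant, with a mean of 19.1 FPKM in si-NC cells, followed by SPRED1 (12.5 FPKM) and ETV5 (12.2 FPKM), which overlapped each other. DUSP5 (7.50 FPKM), SPRY4 (6.93 FPKM), SPRY2 (5.14 FPKM) and FOSL1 (4.66 FPKM) formed a middle group in which each gene overlapped the next. DUSP6 stood below them at 3.78 FPKM, ETV4 at 0.890 FPKM and DUSP4 at 0.0408 FPKM, each apart from its neighbours. In si-METTL16 cells SPRED2 (16.2 FPKM), DUSP5 (15.1 FPKM), ETV5 (13.2 FPKM) and FOSL1 (13.0 FPKM) overlapped their neighbours at the top of the order. SPRY2 (8.40 FPKM) and SPRED1 (7.67 FPKM) came next and overlapped each other, above SPRY4 (4.90 FPKM), DUSP6 (2.87 FPKM), ETV4 (1.47 FPKM) and DUSP4 (0.149 FPKM). FOSL1 thus went from the seventh place to the fourth and SPRED1 from the second to the sixth, while ETV4 and DUSP4 kept the last places. These places depend on the gene lengths used for FPKM. In mean CPM of si-NC cells, DUSP6 (30.7) was above DUSP5 (23.5), FOSL1 (23.8) and SPRY2 (15.5).

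Among the phosphatases, DUSP5 and DUSP4 rose and DUSP6 fell. DUSP5 (chromosome 10 from 110497838 to 110511544) encodes an inducible phosphatase of the nucleus that is specific for ERK. Its level was 26.3, 20.1 and 24.1 CPM in si-NC replicates 1, 2 and 3 and at 54.2, 47.7 and 42.1 CPM in the si-METTL16 replicates. Every si-METTL16 sample lay well above the highest si-NC sample. Its log2 fold change was 1.03 (standard error 0.14, edgeR adjusted p = 0.0014), or 2.04-fold with a 95% interval from 1.64 to 2.55. Its processed copy DUSP5P1 held 71 counts over the 6 samples against 3600 for DUSP5, and reads shared between them could have been split.

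DUSP6 (chromosome 12 from 89347232 to 89353271), the ERK-specific phosphatase of the cytoplasm, was at 33.3, 27.5 and 31.3 CPM in control samples and at 26.1, 22.6 and 22.4 CPM in si-METTL16 cells. The groups did not overlap, but si-NC replicate 2 and si-METTL16 replicate 1 were close. At a log2 fold change of -0.37 (edgeR adjusted p = 0.0343, standard error 0.11), DUSP6 kept 77.2% of its control level. This call was lost without si-NC replicate 1, si-NC replicate 3, si-METTL16 replicate 2 or si-METTL16 replicate 3, with adjusted p-values from 0.0921 to 0.0996, and kept its direction in each case. A long noncoding RNA on the opposite strand of DUSP6 held 22 counts against 2761 for the gene.

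DUSP4 (chromosome 8 from 29333064 to 29350668), a nuclear phosphatase of ERK, JNK and p38, was hardly expressed. Its counts were 6, 3 and 8 in the si-NC samples and 25, 18 and 18 in the si-METTL16 samples. The samples of the groups were apart, with 17 counts in all against 61. DUSP4 rose, but its log2 fold change of 1.87 had a wide 95% interval, from 0.90 to 2.84 (edgeR adjusted p = 0.0117), and no si-NC sample reached the 10 counts that the filter looks for. At 0.123 to 0.185 FPKM in si-METTL16 cells, DUSP4 remained below ETV4, the next gene in the order of levels.

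Summed over DUSP4, DUSP5 and DUSP6, phosphatase transcripts were at 12.5, 9.81 and 11.6 FPKM in si-NC and at 20.3, 17.9 and 16.1 FPKM in si-METTL16 cells. Nearly all of this sum is DUSP5 and DUSP6, and only DUSP5 rose among them. The ratio of DUSP5 to DUSP6 within a sample, which does not depend on library size, was 2.05, 1.89 and 1.99 in si-NC and 5.38, 5.47 and 4.86 in si-METTL16 cells. The samples within a group were alike in this ratio, and the groups lay far apart. The level of the ratio depends on the gene lengths used for FPKM, while its change between the groups does not. In mean CPM, DUSP5 was below DUSP6 in si-NC (23.5 against 30.7) and above it in si-METTL16 cells (48.0 against 23.7). The pairs compared by ratio were chosen with the results known, so they are given without a test.

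The Sprouty genes also parted. SPRY2 (chromosome 13 from 80335976 to 80340951), an inhibitor of receptor tyrosine kinase signalling towards RAS and RAF, was at 15.4, 14.6 and 16.7 CPM in control samples and at 27.8, 26.4 and 23.1 CPM in si-METTL16 cells. All si-METTL16 samples were above all si-NC samples. SPRY2 rose by a log2 fold change of 0.73 (standard error 0.11, edgeR adjusted p = 0.00239), or 1.66-fold with a 95% interval from 1.39 to 1.98.

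SPRY4 (chromosome 5 from 142310427 to 142326455), its relative with a like role, was at 116, 78.0 and 102 CPM in control samples and at 80.6, 70.2 and 62.0 CPM in si-METTL16 cells. The groups overlapped, since si-NC replicate 2 was below si-METTL16 replicate 1. The log2 fold change of -0.48 (95% interval -0.85 to -0.10) had an edgeR adjusted p of 0.0529. SPRY4 passed the threshold without si-NC replicate 2 (-0.63, adjusted p = 0.0153) or without si-METTL16 replicate 1 (-0.58, adjusted p = 0.0494), and with the replicate number as a block (-0.47, adjusted p = 0.0390). In every other fit with a sample left out SPRY4 did not pass, with edgeR adjusted p-values from 0.122 to 0.146. The ratio of SPRY2 to SPRY4 in FPKM was 0.624, 0.881 and 0.772 in si-NC samples, where SPRY4 had the higher FPKM. In si-METTL16 samples it was 1.63, 1.77 and 1.76, with the higher FPKM for SPRY2 in each. Which gene is ahead depends on the gene lengths used for FPKM, while the change of the ratio does not. In CPM, SPRY4 was above SPRY2 in every sample, also in si-METTL16 cells, where SPRY2 was at 27.8, 26.4 and 23.1 CPM.

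Of the Spred genes, SPRED1 fell clearly. SPRED1 (chromosome 15 from 38252326 to 38357249), whose protein brings the RAS inactivator neurofibromin to the membrane, was at 111, 104 and 109 CPM in control samples and at 70.8, 69.3 and 62.1 CPM in si-METTL16 cells. The spread within each group was small beside the gap between the groups. On the log2 scale the fold change was -0.68 (standard error 0.07, edgeR adjusted p = 6.2e-04), a fold of 0.63 with a 95% interval from 0.56 to 0.70.

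SPRED2 (chromosome 2 from 65310851 to 65432637), which acts on RAF and RAS in a related way, was at 150, 150 and 152 CPM in control samples and at 143, 116 and 131 CPM in si-METTL16 cells. Although each si-METTL16 sample was lower than each si-NC sample, the 3 si-METTL16 samples differed widely from each other. SPRED2 had a log2 fold change of -0.21 (95% interval -0.40 to -0.02), which did not pass the threshold (edgeR adjusted p = 0.0798), and it did without si-METTL16 replicate 1 (-0.29, adjusted p = 0.0352). Without any other single sample SPRED2 did not pass, with edgeR adjusted p-values from 0.141 to 0.176. SPRED1 relative to SPRED2 went from 0.673, 0.632 and 0.651 in si-NC to 0.451, 0.544 and 0.432 in si-METTL16 samples. The Sprouty and Spred transcripts together summed to 45.0, 41.3 and 44.6 FPKM in si-NC and to 40.3, 35.9 and 35.4 FPKM in si-METTL16 cells, the opposite order to the phosphatases.

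**Figure D3:**
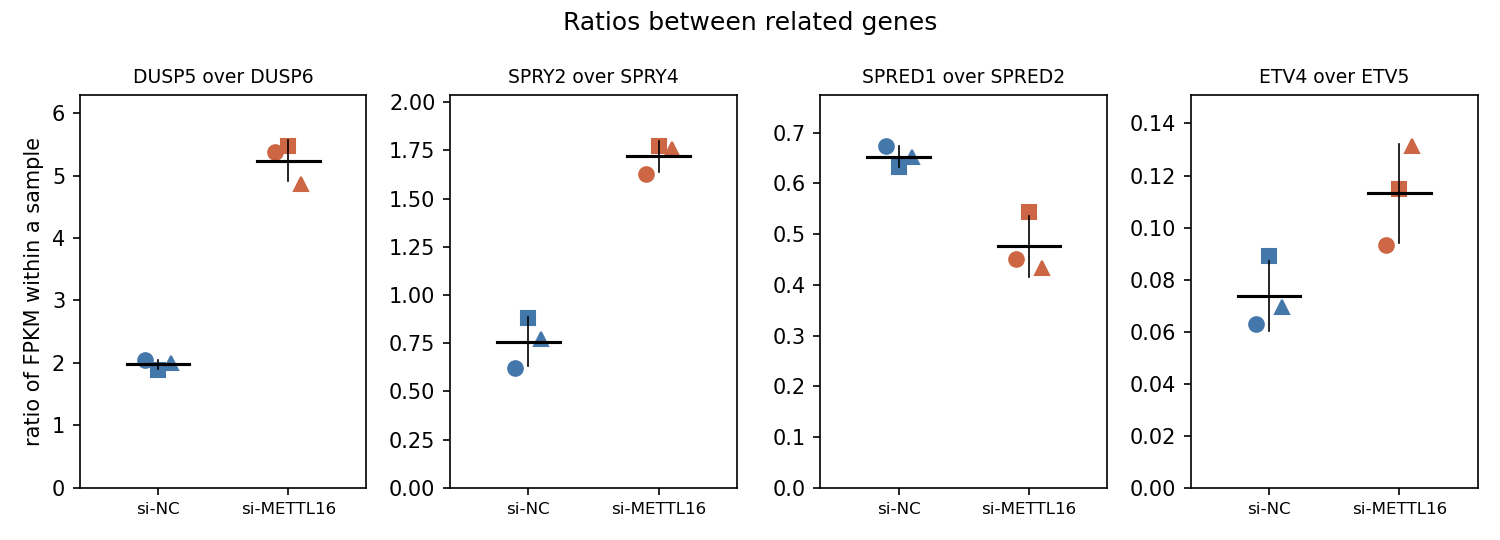
Ratio of deposited FPKM between related genes within each sample, with circles, squares and triangles for replicates 1, 2 and 3, a horizontal bar for the group mean and a vertical bar for the SD (n = 3); each axis starts at 0. DUSP5 over DUSP6 moves from a mean of 1.98 to 5.24, SPRY2 over SPRY4 from 0.759 to 1.72, SPRED1 over SPRED2 from 0.652 to 0.476 and ETV4 over ETV5 from 0.0738 to 0.113, with no overlap of the groups in any panel.

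The start regions of the inhibitor genes can be set beside these values. RefSeq windows of 300 bases (GRCh38.p14, 250 before and 50 after a start site) were at hand for 5 of the 10 genes, namely DUSP6, SPRY2, SPRY4, SPRED1 and SPRED2. DUSP4, DUSP5, ETV4, ETV5 and FOSL1 had no entry. ETS factors, among them ETV4 and ETV5, bind the core GGAA, and some of them are ERK substrates, so this core was searched on both strands. The windows of the 3 called genes are shown, since SPRY2 rose while SPRED1 and DUSP6 fell. Capitals mark GGAA and its complement TTCC. The windows are chr13:80341077-80341376 on the minus strand for SPRY2, chr15:38252586-38252885 on the plus strand for SPRED1 and chr12:89352452-89352751 on the minus strand for DUSP6.
SPRY2: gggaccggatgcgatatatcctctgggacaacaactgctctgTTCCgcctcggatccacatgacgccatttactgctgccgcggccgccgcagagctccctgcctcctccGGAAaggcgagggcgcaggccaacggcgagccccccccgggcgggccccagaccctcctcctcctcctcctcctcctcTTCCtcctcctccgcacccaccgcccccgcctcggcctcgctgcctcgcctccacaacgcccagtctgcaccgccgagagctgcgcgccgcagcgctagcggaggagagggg
SPRED1: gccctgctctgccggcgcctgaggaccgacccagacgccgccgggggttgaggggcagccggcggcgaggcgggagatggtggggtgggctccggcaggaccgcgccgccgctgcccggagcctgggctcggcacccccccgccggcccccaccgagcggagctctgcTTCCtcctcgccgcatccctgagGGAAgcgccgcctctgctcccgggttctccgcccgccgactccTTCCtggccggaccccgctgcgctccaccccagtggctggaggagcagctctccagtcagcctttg
DUSP6: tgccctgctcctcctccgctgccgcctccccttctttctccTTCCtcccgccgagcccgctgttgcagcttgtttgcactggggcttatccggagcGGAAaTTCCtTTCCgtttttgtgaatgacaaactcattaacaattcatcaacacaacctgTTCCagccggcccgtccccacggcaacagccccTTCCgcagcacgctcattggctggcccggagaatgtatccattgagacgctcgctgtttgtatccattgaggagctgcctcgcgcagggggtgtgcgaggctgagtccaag

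The core occurred 3 times in SPRY2, 3 times in SPRED1 and 6 times in DUSP6, and 4 and 6 times in the windows of SPRY4 and SPRED2. The SPRY4 window belongs to a start site 774 bases from that of the gene's standard reference transcript (MANE Select). The windows of the other genes are at that start, so the SPRY4 counts are not from a like position. The deposited coordinates differ from that start for the 3 genes shown. SPRY2 ends there at 80340951, short of its window, while DUSP6 reaches 89353271 and SPRED1 begins at 38252326, both beyond their windows. The core is a common word, present in 95.5% of all 35116 windows with a median of 3 matches. The longer PEA3 form AGGAAG, which contains the core, stood in 33.6% of all windows. It was found once in SPRY2 and once in DUSP6, 2 times in SPRED1, 3 times in SPRED2 and not in SPRY4. The AP-1 word TGANTCA, to which dimers with FOSL1 bind, was in 7.71% of all windows and in none of these 5. Other windows of these genes were not searched.

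Among the transcription factors, FOSL1 showed the clearest rise of the 10 genes. FOSL1 (chromosome 11 from 65892049 to 65900573) encodes FRA1, a partner of JUN proteins in AP-1 that accumulates under sustained ERK activity. It was at 26.3, 21.5 and 23.7 CPM in control samples and at 78.8, 69.4 and 54.6 CPM in si-METTL16 cells. Even the lowest si-METTL16 sample was far above the highest si-NC sample. The log2 fold change of 1.50 (standard error 0.15, edgeR adjusted p = 4.8e-04) stands for 2.83-fold with a 95% interval from 2.22 to 3.62. Among the 15089 tested genes FOSL1 held place 546 by p, SPRED1 682, DUSP5 1206 and SPRY2 1565.

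ETV4 (chromosome 17 from 43527844 to 43579620), an ETS factor of the PEA3 group, was at 6.39, 7.07 and 5.70 CPM in control samples and at 10.5, 10.8 and 10.8 CPM in si-METTL16 cells. The 3 si-METTL16 values nearly coincided and lay above all si-NC values. ETV4 rose by 0.75 on the log2 scale (standard error 0.13, edgeR adjusted p = 0.00433), or 1.68-fold with a 95% interval from 1.36 to 2.07. In GENCODE v44, ETV4 shares 68 of its 3515 exon bases with DHX8 on the opposite strand, a gene with 7472 counts over the 6 samples against 864 for ETV4. If counting ignored strand, reads of DHX8 could have entered the ETV4 counts. DHX8 was at a mean of 75.2 CPM in control and 72.4 CPM in silenced cells and was not called.

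ETV5 (chromosome 3 from 186046308 to 186110318), the close relative of ETV4, was at 112, 87.7 and 90.5 CPM in control samples and at 124, 103 and 91.1 CPM in si-METTL16 cells. The groups overlapped, and within each of them replicate 1 was the highest. The log2 fold change of 0.14 had a 95% interval from -0.19 to 0.46 (edgeR adjusted p = 0.482), so a rise of up to 1.38-fold or a fall to 0.88-fold lies within it. ETV4 relative to ETV5 in FPKM was 0.0629, 0.0889 and 0.0695 in si-NC and 0.0935, 0.115 and 0.131 in si-METTL16 samples, and ETV5 stayed the more abundant by far. The 3 factor transcripts summed to 20.2, 16.3 and 16.9 FPKM in si-NC and to 31.9, 27.7 and 23.4 FPKM in si-METTL16 cells.

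The genes also varied together between replicates. In si-NC cells, replicate 2 had the lowest CPM of the 3 samples for 8 of the 10 genes, the exceptions being SPRED2 and ETV4, whereas it was lowest for 33.6% of all tested genes. Among si-METTL16 cells, replicate 1 was highest for 9 of the 10 genes, all but ETV4, against 32.6% of all tested genes, and replicate 3 was lowest for 8, against 32.8%. This held for genes that rose, fell or were not called after silencing. The order of the samples was examined after the values had been seen, and the 10 genes are no independent draws. In the lists of other ERK pathway genes described next, si-NC replicate 2 was lowest for 11 of 29 cascade genes, 7 of 18 responsive genes, 10 of 17 paralogues and 2 of 20 substrates. There, si-METTL16 replicate 1 was highest for 13 of 29, 11 of 18, 7 of 17 and 12 of 20 genes.

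Upstream of these outputs, several core cascade genes were measured with small differences. NRAS, which encodes a RAS GTPase, rose by a log2 fold change of 0.39 (edgeR adjusted p = 0.00183). HRAS (0.06), ARAF (0.02), BRAF (-0.07), MAP2K1 (-0.08), MAP2K2 (-0.33) and MAPK3 (-0.21) did not pass the threshold. The log2 fold changes of ARAF and BRAF changed sign when single samples were left out.

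In the list of 29 cascade genes and upstream regulators, 6 rose and 5 fell, with a median log2 fold change of -0.08. The share called, 37.9%, was close to the 35.9% over all tested genes. SOS1, the exchange factor that loads RAS with GTP, fell from 145, 128 and 133 CPM to 59.8, 60.1 and 69.3 CPM (log2 fold change -1.10, edgeR adjusted p = 0.000206), and GAB1, an adaptor downstream of receptors, fell by 0.78. RASA2, a RAS GTPase-activating protein, fell by 0.48. PTPN11, which encodes the phosphatase SHP2 and acts in favour of RAS activation, rose from 183, 200 and 195 CPM to 343, 342 and 326 CPM (log2 fold change 0.81). MRAS (1.38) and RASAL2 (1.33), a RAS-family GTPase and a RAS GTPase-activating protein, had the highest log2 fold changes of the list. In both, si-METTL16 replicate 3 lay much lower than the other si-METTL16 replicates, at 20.1 CPM for MRAS against 40.3 and 39.3 CPM, and the call of MRAS was lost without si-NC replicate 3 (adjusted p = 0.0537). Genes with opposite effects on RAS were found on both sides, in a list called about as often as all genes. PTPN11 shares 111 exon bases with RPL6 on the opposite strand, which held more counts than PTPN11.

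Other ERK-responsive transcripts were called more often upward than downward. Of 18 such genes, 9 rose and 3 fell, with a median log2 fold change of 0.51. Over all tested genes, 18.4% were called higher and 17.5% lower. The list was written with earlier results of these samples known, so its count is a description. MYC (2.64), EREG (2.07) and TNFRSF12A (1.40) had the highest values. MYC was at 8.34, 21.0 and 4.62 CPM in control samples and at 82.5, 72.4 and 56.2 CPM in si-METTL16 cells. Its control samples scattered widely, and without si-NC replicate 2 its log2 fold change was 3.43. EREG, a ligand of the EGF receptor, was at 28.9, 33.4 and 31.3 CPM in control samples and at 150, 121 and 122 CPM in si-METTL16 cells, a wide gap beside the spread of either group. TNFRSF12A, the receptor of the cytokine TWEAK, was at 63.4, 38.9 and 60.4 CPM in control samples and at 153, 137 and 139 CPM in si-METTL16 cells. Among those that fell were KLF10 (log2 fold change -0.74) and CCND1 (-0.48). CCND1, which encodes cyclin D1, is a classical ERK output, and it was at 708, 763 and 714 CPM in control samples and at 513, 542 and 513 CPM in si-METTL16 cells. The call of KLF10 was kept in only 1 of 6 fits with a sample removed, with log2 fold changes from -1.09, without si-METTL16 replicate 3, to -0.57.

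Of 17 paralogues of the 10 genes, 7 rose and 4 fell, with a median log2 fold change of -0.09. That is 64.7% called, against 35.9% over all tested genes. FOSB (2.42) and FOS (1.49), low AP-1 genes at up to 1.03 CPM in si-NC cells, and DUSP8 (1.10), a phosphatase that acts on JNK and p38, had the highest log2 fold changes. DUSP9 (-1.55), a phosphatase of ERK in the cytoplasm, DUSP2 (-1.10), a nuclear phosphatase, and JUNB (-0.64) had the lowest among those called. SPRED3 had a log2 fold change of -1.34 and did not pass the threshold (edgeR adjusted p = 0.0757). DUSP9 was at 11.3, 8.19 and 9.18 CPM in control samples and at 3.72, 1.99 and 4.01 CPM in si-METTL16 cells. The cytoplasmic ERK phosphatase genes DUSP6 and DUSP9 were therefore both called lower, while DUSP7, the remaining gene of that group, had a log2 fold change of -0.12 and was not called. The call of DUSP6 was kept in only 2 of the 6 fits with a sample left out. This grouping was made, and DUSP7 singled out, after the values were seen.

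Of 20 genes for ERK substrates and cofactors, 7 rose and 1 fell. The share called, 40%, was close to the 35.9% over all tested genes. Only 4 were called higher when any single si-NC sample or si-METTL16 replicate 1 was left out, or without a filter on low counts. The ETS factors ETS2 (log2 fold change 1.10) and ETS1 (0.84), both of which ERK phosphorylates, and MITF (1.13), a factor whose protein ERK also modifies, had the highest values among those called. ETS2 was at 114, 120 and 125 CPM in control samples and at 258, 257 and 254 CPM in si-METTL16 cells, with replicates that nearly coincided. MKNK1, a kinase that ERK activates, fell by 0.49 on the log2 scale. It shares 101 exon bases with MOB3C on the same strand, which held 1190 counts against 3112 for MKNK1. All 4 lists were written from general knowledge with earlier results of these samples known, and their counts describe them beside the 35.9% called over all genes.

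**Figure D4:**
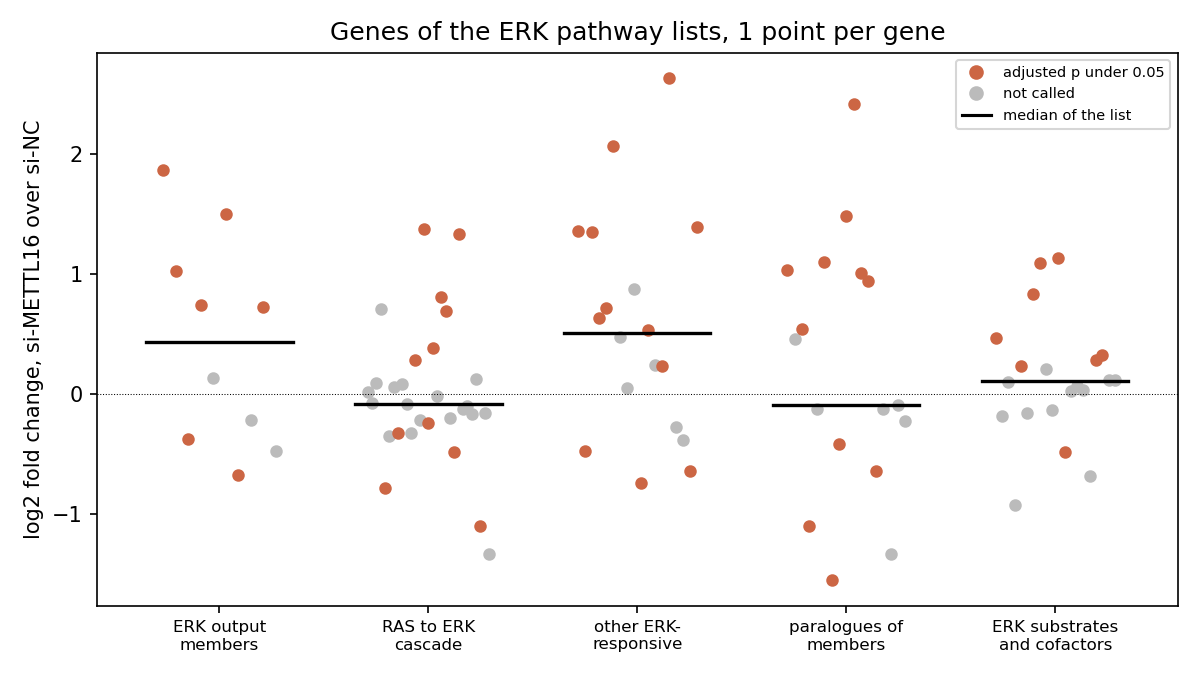
Log2 fold changes, si-METTL16 over si-NC, of the 10 ERK output genes and of the genes of 4 ERK pathway lists (1 point per gene, orange where the edgeR adjusted p was under 0.05, grey where it was not), with the median of each list as a bar. Called genes lie on both sides of 0 in every list, and the medians are 0.43, -0.08, 0.51, -0.09 and 0.11 from left to right.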

How the data were processed

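RNA-seq of 6 PANC-1 samples (3 si-NC, 3 si-METTL16) was used, grouped and numbered by sample title. The authors deposited raw counts per gene and FPKM values, which divide the counts by gene length and sample total. The submitters' processing notes list HISAT2 2.0.4, StringTie 1.3.0 and GRCh38; their roles, the annotation release and the use of strand are not given in the sources used here. Coordinates are those of the deposited table.

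Counts were filtered with filterByExpr (minimum count 10, minimum total 15), scaled by TMM and compared by the quasi-likelihood F test (edgeR 4.0.16, R 4.3.3). Benjamini-Hochberg adjustment was made over 15089 genes and a threshold of 0.05. The methods of the study name limma, which was run as an alternative because counts were deposited. CPM values of genes use TMM library sizes, and SD values have n = 3. Standard errors and 95% intervals were taken from the fold change, its F statistic and its degrees of freedom. The common biological coefficient of variation was 16.5%. Replicates differed beyond sampling noise (chi-square per degree of freedom over genes at least 10.4). The test was tried before use on simulated counts in which few genes changed, so its error rates at the share called here were not gauged.

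The members and the lists were chosen with earlier results of these data known. Genes named in the text were all 10 members, METTL16, core cascade genes and, from each list, up to 3 called genes at either end of the fold changes; marker genes, overlapping genes and DUSP7 were added, and a few genes under this rule are not reported here. Alternatives were the replicate block, each sample left out, no filter, a floor of 10 counts per sample, size factors or the Wald test from DESeq2 1.42.0, and limma 3.58.1 applied to voom values, to log2(FPKM + 1) or to log2(FPKM + 0.1), the FPKM fits being kept to genes that averaged 1 FPKM or more. Exon overlaps came from GENCODE v44 and promoter windows from RefSeq (GRCh38.p14), both read with Python 3.11.15. Exons of other genes also overlap ARAF, BRAF, MAP2K1, SOS1, CCND1, TNFRSF12A, MYC and JUNB, and the part of these overlaps was not tested. For BRAF, the overlapping gene NDUFB2 held 4206 counts against 3860.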

Additional observations from a re-analysis of the deposited data

How the results depend on the processing

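Over 14 alternatives, the log2 fold changes of the 10 genes and of METTL16 kept their direction in all 151 values, and 140 of them stayed on the same side of the threshold; 5 lost the call (all DUSP6) and 6 gained it (SPRY4 and SPRED2). The calls of DUSP5, SPRY2, SPRED1, ETV4 and FOSL1 were kept under every alternative, and that of DUSP4 under all 11 that could test it. The number of members called lower, 2, was 1 without a filter on low counts, where DUSP6 had an adjusted p of 0.0644 from edgeR over 28883 genes, and lay between 1 and 4 in the fits lacking a sample. The number called higher was 4 or 5 throughout. Over all genes, between 4159 and 5487 were called. ARAF, not called, changed sign with limma on log2(FPKM + 1) and log2(FPKM + 0.1), to -0.0039 and -0.0043, and ranged from -0.046 to 0.061 with samples left out, as did BRAF, from -0.14 to 0.011. Of the other values of the 32 listed genes named, 7 lost a call (6 for KLF10, 1 for MRAS) and 2 gained one (MAP2K2). Among 112 counts over the lists, 103 were within 1.5 times the main count. With the replicate number as a block, SPRY4 was called lower (-0.47, edgeR adjusted p = 0.0390), which made 3 members lower and 5 higher, MAP2K2 was called (-0.33, adjusted p = 0.0274), and 5013 genes were called, 4731 of them shared with the unblocked fit. The labels do not say that a number marks a shared culture. Deviations from the group means of same-numbered samples correlated across genes at 0.0253, 0.0371 and 0.0298, and each sample correlated best with its own number. Low counts limit DUSP4, and 3 samples per group limit DUSP6, SPRY4 and SPRED2.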
